A study of Mus musculus with 12 samples.

Results

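The sites described here are CpGs of mouse spermatozoa at which both DNA strands were measured by reduced representation bisulfite sequencing (RRBS), so that the methylation of one cytosine could be set beside that of its partner across the helix. A pair was taken where a row for the + strand at one position and a row for the − strand at the next position of the same autosome were in the count table. This gave 26 pairs, or 52 of 13917 autosomal rows, among 14149 rows in all. Methylation is given as the percent of reads that kept a cytosine, separately for each strand.

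There were 4 groups of 3 samples, namely sperm cells of the testis, which may include spermatids, and spermatozoa of the epididymal segments *caput*, *corpus* and *cauda*. All came from untreated B6D2F1 mice, aged 10 to 12 weeks, that carry Tg(CAG/su9-DsRed2, Acr3-EGFP), line RBGS002Osb, which places GFP in the acrosome and DsRed in mitochondria. Cells positive for both were sorted from pooled mice, so that limma p-values speak of the spread between pools. Per the study, *cauda* spermatozoa were flushed out by retrograde perfusion, while tissue of testis, *caput* and *corpus* was cut and dissociated before sorting. In *cauda* against testis, the way of collection therefore cannot be told apart from the segment. Testis replicates 1 to 3 held 945451, 1007992 and 879218 reads over the table. The totals were 643941, 869129 and 706411 for *caput*, 429606, 848746 and 616626 for *corpus*, and 784708, 679576 and 765781 for *cauda*. Sperm identity could not be checked in pairs, because imprinted loci known to be methylated or unmethylated in sperm held 5 and 10 rows of the table and 0 pair rows.

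In a CpG the cytosines of both strands face each other diagonally, and the maintenance methyltransferase Dnmt1, guided by Uhrf1 to newly copied DNA, restores methylation on the new strand. Methylation is therefore usually symmetric, and a CpG with methylation on 1 strand only is called hemimethylated. Spermatozoa do not replicate their DNA. In RRBS the strands of a CpG are read from different ends of a restriction fragment, so that the rows of a pair are counted from separate reads.

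*Caput* replicate 1 and *corpus* replicate 1 stood apart from the rest. The mean over the 52 pair rows was 60.2% in *caput* replicate 1, against 46.6% to 54.3% in the other 11 samples. In *corpus* replicate 1 the pairs had the lowest median depth, 16 reads on the + strand and 18.5 on the − strand. Values without them are given where leaving them out changes a call or moves a value by more than 1.5 times.

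The 26 pairs lay at 12 loci, of which 6 held 1 pair and 6 held several, up to 7. By GENCODE annotation on GRCm38, 22 pairs lay within 2 kb of a start site, 1 in an exon and 3 between genes. In 25 pairs, at 11 loci, the CpG sat in a fragment of 47 to 93 bp between neighbouring CCGG sites, the sequence cut by MspI, whereas 17.3% of the 13865 autosomal rows without a partner sat in fragments shorter than 100 bp. These 25 pairs lay at most 51 bp from the CCGG on either side, a distance taken from the pairs themselves, so that their own share is fixed by it, and 8.28% of the rows without a partner lay that close to both sites. The remaining pair, at Gm10800, had its nearest CCGG sites 605 and 1754 bp away. The median number of CpGs within 50 bp to either side, the site included, was 9 for pair rows and 4 for the other rows, while soft-masked repeats held 15.4% and 16.1% of them.

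The absolute difference between the strands, averaged over the 12 samples, was within 10 percentage points at 18 pairs and larger at 8. The 18 were the 8 pairs with a mean under 20% and the 10 with a mean over 80%. There a difference has less room than in the middle of the scale, and the part of this limit was not tested. All 8 pairs between 20% and 80% differed by more, 10.1 to 67.2 percentage points. Pearson's r between the strands over the 26 pairs was 0.803 ± 0.0537 (SD, n = 12 samples), with the lowest value, 0.723, in *corpus* replicate 3 and the highest, 0.875, in testis replicate 3. Over the 23 pairs left without the 3 at Gm26917 it was 0.952 ± 0.0338. These correlations run across sites of the same libraries, many of them neighbours in 1 fragment, and describe the pairs without testing them.

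A strand difference was called at 3 of 26 pairs (11.5%) by limma, at an adjusted p under 0.01 and a mean difference above 10 percentage points, with p adjusted over the 26 pairs, which are all the autosomal sites of the table where this difference can be formed. All 3 lay at Gm26917, a long non-coding RNA gene on chromosome 17. Gm26917 ends at position 39846341. The next gene annotated as ribosomal RNA, CT010467.1, starts at 39846353, which is 1462 bp from the last pair. Ribosomal DNA is a tandem repeat with many copies in the genome, and assemblies hold few of them. The 3 pairs sat within 1 fragment of 47 bp. The sequence from 20 bases before them to 20 bases after is shown because the difference between the strands is so large there. The paired CpGs are in capitals (+ strand of GRCm38, chr17:39844852-39844911).
Gm26917: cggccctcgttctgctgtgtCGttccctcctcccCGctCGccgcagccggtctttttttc

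At position 39844872 the + strand was methylated at 27.9%, 41.7% and 28.3% in testis replicates 1 to 3, and the − strand at 80%, 88.4% and 83.3%. In *caput* the + strand gave 39.3%, 22% and 9.09%, and the − strand 91.9%, 91.0% and 84.6%. In each of these samples the − strand was the higher. In *corpus* the + strand gave 5.88%, 11.6% and 0%, and the − strand 75.9%, 88.6% and 72.5%. In *cauda* the + strand gave 33.3%, 33.3% and 11.1%, and the − strand 89.5%, 95.6% and 77.8%. The lowest value of the − strand over all 12 samples lay above the highest of the + strand, and the same held at the pairs at 39844886 and 39844890. The 0% of *corpus* replicate 3 rested on 14 reads, with a 95% Wilson interval up to 21.5%.

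The mean difference, + minus −, was −63.0 percentage points at 39844872, −67.2 at 39844886 and −66.4 at 39844890, negative in 12 of 12 samples each time (limma adjusted p = 2.34e-09, 1.66e-09 and 4.37e-09). All 3 were shared by each of the 12 fits that left out 1 sample. Fisher's exact test within single samples called the strands different at 5 of 26 pairs (19.2%) in at least 3 samples, at an adjusted p under 0.05. This test takes reads as independent and covers counting error only. The 3 pairs of Gm26917 were called in all 12 samples, the pair at Gm10800 in 6 and a pair of Sfi1, at 3193457, in 3. The last was called in testis replicate 1, *caput* replicate 2 and *corpus* replicate 1, and the count was 4 with any 1 of them left out.

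Depth at Gm26917 also differed between the strands. The + strand had 14 to 61 reads at 39844872 and the − strand 25 to 391. Reads on the − strand per read on the + strand numbered 0.410, 3.58 and 1.5 in testis. They numbered 10.1, 9.54 and 7.09 in *caput*, in *corpus* they were 8.06, 6.95 and 7.79, and *cauda* had 3.89, 3.33 and 1.5. Every *caput* and *corpus* sample was thus above every testis and *cauda* sample. The part of this depth in the strand difference was not tested.

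Averaged over the 3 pairs, the + strand of Gm26917 was at 28.4% ± 8.16 (SD, n = 3) in testis, 18.5% ± 10.1 in *caput*, 6.23% ± 3.90 in *corpus* and 19.7% ± 7.84 in *cauda*. The − strand was at 82.4% ± 7.43, 85.2% ± 5.90, 79.5% ± 9.80 and 87.6% ± 9.26 in the same order. The + strand of every *corpus* sample lay below every testis sample at all 3 pairs, whereas the ranges of the − strand overlapped. In pooled reads the + strand differed by −23.8, −17.9 and −18.1 percentage points, and none of these rows was called at a difference above 25, against 3.96% of all rows called in *corpus*. At 39844872 the strand difference in *corpus* minus that in testis was −21.9 percentage points, with a limma adjusted p of 0.0885.

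No pair passed the test of whether the strand difference itself differed between a segment and testis. limma called 0 of 26 pairs in *caput* (0%), 0 in *corpus* (0%) and 0 in *cauda* (0%), and 2, 4 and 1 pairs had an unadjusted p under 0.05. Logistic regression with a strand by segment term called 1 pair in *caput*, at 3193439 of Sfi1 (adjusted p = 0.000728), and 0 in *corpus* and *cauda*. There the + strand gave 100%, 73.1% and 53.3% in *caput* and the − strand 94.1%, 91.9% and 80.2%, so that replicate 1 ran against the other 2. The strand difference in *caput* minus that in testis was −15.8 percentage points, and −25.4 without *caput* replicate 1. Without *caput* replicate 2 or 3 this value was −13.0 and −9.01 percentage points, and the pair was not called (logistic regression, adjusted p = 0.132 and 0.0879). A second pair of Sfi1, at 3193442, was called without *caput* replicate 3 and without testis replicate 2. In *cauda* this test called 39844886 without testis replicate 2 and 3193471 of Sfi1 without *cauda* replicate 2. Without *caput* replicate 1, limma called 2 pairs in *caput*, at 23250760 near Fezf1 (−23.8 percentage points) and at 39844872 of Gm26917 (−21.0), and 1 in *corpus*, at 39844872 (−21.9). Without *corpus* replicate 1 it called 39844886 of Gm26917 in *corpus* (−25.0) and in *cauda* (−18.5). Without both samples it called 0 pairs in *caput*, 39844872 and 39844886 in *corpus*, and 39844886 in *cauda*.

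The segments were also compared with testis strand by strand, by logistic regression on pooled reads over all 14149 rows, where a call needed more than 25 percentage points and an adjusted p under 0.01. In *caput* 2 of 26 pairs were called on both strands and in the same direction, against 16.8% of all rows called. Taken row by row, 5 of the 52 pair rows, 9.62%, were called in *caput*. In *corpus* 0 pairs were called on both strands, where 3.96% of all rows were called, and 0 pairs in *cauda*, where 0.233% were. At an unadjusted p under 0.05 there were 19 pair rows (36.5%) in *caput*, 15 (28.8%) in *corpus* and 4 (7.69%) in *cauda*, against 48.5%, 36.8% and 22.7% of all rows. This test reads counts and not the spread between pools. With an overdispersion term 0 rows of the whole table were called in any segment. An unadjusted p under 0.05 was then reached by 4, 3 and 0 pair rows, and by 17.2%, 9.56% and 3.07% of all rows. On simulated data at this coverage the test with that term recovered none of the changed sites. The simulation changed fewer rows than were called here in *caput* without the term, and had no spread between pools. It therefore differs from these data, and the part of low power in the count of 0 was not tested.

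Gm42642, a processed pseudogene on chromosome 6, held the pair that rose on both strands in *caput* with all 3 samples above all testis samples. On the + strand it was methylated at 2.05%, 0.826% and 0.794% in testis and at 53.2%, 17.2% and 24.1% in *caput*. On the − strand it was at 0%, 0% and 3.85% in testis and at 50%, 25% and 13.3% in *caput*. *Caput* replicate 1 was the highest of the 12 samples on both strands. In *corpus* the + strand gave 8.62%, 11.7% and 10.3%, and the − strand 6.25%, 27% and 5.71%. In *cauda* the + strand gave 0%, 2.75% and 0%, and the − strand 0% in all 3 samples, from 25, 37 and 28 reads. *Cauda* values thus overlapped those of testis, and *corpus* values lay above testis on both strands.

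The *caput* difference at Gm42642 in pooled reads was 27.3 percentage points on the + strand (adjusted p = 3.04e-27) and 29.7 on the − strand (adjusted p = 3.55e-09). Without *caput* replicate 1 the differences were 18.4 and 20.7 percentage points, and the pair was no longer called. The depth was 77 to 134 reads in *caput* on the + strand and 15 to 36 on the − strand. The strands differed by 4.40 percentage points on average over the 12 samples, and the sequence around the pair is shown because it carries the same change on both strands (+ strand of GRCm38, chr6:3182962-3183003).
Gm42642: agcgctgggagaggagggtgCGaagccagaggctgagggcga

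The other pair called in *caput* on both strands lay at Gm10800 on chromosome 2, in a stretch of the major satellite, the tandem repeat of mouse pericentromeric chromatin. On the + strand it was at 11.8%, 36.4% and 20% in testis and at 47.2%, 36.3% and 66.9% in *caput*, while *corpus* samples had 37.8%, 60% and 81.5% and *cauda* samples 33.9%, 38.2% and 48.6%. On the − strand it was at 33.3%, 5.56% and 17.9% in testis and at 62.5%, 78.9% and 13.3% in *caput*, while *corpus* samples had 14.7%, 21.1% and 35.3% and *cauda* samples 26%, 9.09% and 21.7%. The + strand was the higher in 9 of 12 samples, among them all *corpus* and all *cauda* samples, and the *caput* and testis ranges overlapped on both strands. The pooled differences in *caput* were 25.9 percentage points on the + strand (logistic regression, adjusted p = 0.00121) and 37.0 on the − strand (3.15e-05). The pair was not called on both strands without testis replicate 1 or 3 or *caput* replicate 2 or 3, which left 1 pair called in each case but the last, where a pair of Tmem267 came in. In *corpus* the + strand lay above all testis samples and was called (31.4), while the − strand differed by 4.30, and without *corpus* replicate 1 the differences were 49.1 and 8.41, with the + strand still called and the − strand not.

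Depth at Gm10800 moved with the group and with the strand. The + strand had 17, 11 and 20 reads in testis and 108 to 383 in the other 9 samples, while the − strand had 15 to 50 in all 12. Once cytosines are read as thymines, the 42 bases around the pair, with the cytosines of each strand so replaced, matched the genome at 2 places for the + strand and 76 for the − strand. At each of the other 11 loci, Gm26917 among them, the stretch around the pairs matched 1 place for either strand, counting assembled chromosomes only. The part of these copies in the values was not tested. The sequence is shown for that reason (+ strand of GRCm38, chr2:98667087-98667128).
Gm10800: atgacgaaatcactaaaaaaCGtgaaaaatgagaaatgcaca

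Gm10800 was also 1 of 7 pairs with a mean of 30% to 70%, with a mean absolute strand difference of 28.2 percentage points. Of these 7 pairs, the closest strands were at 12889947 on chromosome 13, between genes and 8750 bp from the pseudogene Gm18878, with a mean absolute difference of 10.1 percentage points. There the + strand was at 65.6%, 65.9% and 58.8% in testis and 87.5%, 63.6% and 72% in *caput*. The − strand was at 39.1%, 58.6% and 60% in testis and 83.3%, 84.4% and 80% in *caput*. The − strand of every *caput* sample was above every testis sample, and was called (29.2 in pooled reads), while the + strand overlapped. Its neighbour 6 bases away, at 12889941, differed by 15.1 percentage points between the strands on average, at 12 to 43 reads a strand.

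Tmem267, which encodes a transmembrane protein, held pairs at 2 loci of chromosome 13. In its exon, at 119609727, the + strand was at 27.8%, 30% and 38.1% in testis and 71.4%, 61.3% and 40.7% in *caput*, and the − strand at 24.1%, 31.9% and 38.1% and at 79.4%, 50% and 31.1%. The + strand of the *caput* samples lay above testis, and on the − strand replicate 3 overlapped. Neither strand was called, at differences of 23.4 and 21.5 percentage points in pooled reads, and without *caput* replicate 3 both were, at 32.2 and 33.1. Without *caput* replicate 1 they fell to 19.5 (adjusted p = 0.0820) and 10.7 (adjusted p = 0.182). At its promoter, the pairs 119488413 and 119488417 were at 82.3% ± 9.83 (SD, n = 12) on the + strand and 83.4% ± 11.5 on the − strand. Testis replicates 2 and 3 were the low samples on the − strand there, between 58.5% and 62.5%, and testis replicate 3 was also low on the + strand, at 62.5% and 60.4%.

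Sfi1, which encodes a centrin-binding protein of the centrosome, held 7 pairs within 1 fragment of 55 bp at its promoter. Of these, 4 lay inside both Sfi1 and Drg1, the gene of a GTP-binding protein, and 3 inside Drg1 only. Averaged over the 7 pairs, the + strand was at 90.0% ± 1.99 (SD, n = 3) in testis, 86.5% ± 4.90 in *caput*, 78.2% ± 13.3 in *corpus* and 89.8% ± 3.82 in *cauda*. The − strand was at 89.1% ± 2.11, 91.3% ± 4.83, 88.9% ± 1.73 and 88.2% ± 2.64. The + strand means of *corpus* replicates 1 to 3 were 64.9%, 91.6% and 78.2%, and the low values came with low depth, whose part was not tested. In *corpus* replicate 1 the 7 pairs had 12 to 16 reads on the + strand and 41 or 42 on the − strand, and at 3193457 the + strand was at 50% against 97.6%. In *corpus* replicate 3 the + strand had 15 to 17 reads.

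Outside Gm42642, the pairs with a mean under 20% lay at 3 promoters. At Chordc1, whose product binds the chaperone Hsp90, the pair at 18292116 had 0 methylated reads of 249 on the + strand and of 209 on the − strand over the 12 samples, which allows up to 1.20% and 1.44%. At the other Chordc1 pairs the − strand was at 0% throughout and the + strand was above 0% in 1 sample each, testis replicate 2 at 4% of 25 reads and *cauda* replicate 1 at 6.90% of 29. At Hhip, which encodes a protein that binds hedgehog ligands, the + strand was at 5.76% ± 6.07 (SD, n = 12) and the − strand at 0.962% ± 3.33. The − strand was above 0 in 1 sample, *corpus* replicate 3, at 11.5% of 26 reads. The + strand was the higher in 7 samples, the − strand in 0, and the mean difference of 4.80 percentage points was not called (limma adjusted p = 0.0418).

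At the start of C130093G08Rik, 3 pairs within 8 bases were mostly under 10% on both strands. By GENCODE they lay 2398 bp or more from Fezf1, a zinc finger gene of the developing forebrain, and by RefSeq inside it. On the + strand at 23250764 *caput* was at 19.2%, 7.04% and 8.70%, above 2.08%, 0% and 0% in testis, and the pooled difference of 9.02 percentage points was too small for a call (adjusted p = 0.000443). The − strand of *caput* replicate 1 was at 0% of 24 reads there. Single samples stood out on the − strand. *Corpus* replicate 1 was at 45.5% at 23250764 and at 23250766, with 5 of 11 reads each, while the + strand was at 0% of 38 and 39 reads. *Caput* replicate 1 was at 28% and *cauda* replicate 2 at 19% at 23250766, both with 0% on the + strand. *Caput* replicates 2 and 3 were at 25% and 41.7% at 23250760, where the + strand was at 0% and 25%. The − strand of that pair differed by 17.5 percentage points in pooled reads and was not called in *caput*, but was called without *caput* replicate 1, at 31.3.

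The pair with the highest mean over both strands, 97.2%, lay at Mucl2 on chromosome 15. Its + strand was at 100% in all testis and *caput* samples, at 10 to 48 reads over the 12 samples, and its − strand was at 92.4% to 100%, at 97 to 160 reads. The lowest value was 82.4% on the + strand of *corpus* replicate 2, from 14 of 17 reads. Next to Smok2b, a sperm motility kinase gene 1564 bp away, the pair at 13238748 of chromosome 17 was at 74.2% ± 11.7 (SD, n = 12) on the + strand and 71.0% ± 9.25 on the − strand. The strand order there changed between samples of testis, *caput* and *cauda*, while the + strand was the higher in all 3 *corpus* samples, and differences ran from −28.8 to 28.5 percentage points.

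Averaged over pairs within a sample, the + strand minus the − strand gave −7.50 percentage points, negative in all 12 samples, and without the 3 Gm26917 pairs the mean difference was 0.0615 ± 4.46 percentage points (SD, n = 12 samples). It then ran from −10.1 in *corpus* replicate 1 to 4 in testis replicate 1. Without *corpus* replicate 1 it was 0.987, without *caput* replicate 2 it was 0.695, and without *caput* replicate 1 or testis replicate 3 it was 0.151 and 0.154. It was negative, −0.296 to −0.0442, without testis replicate 1 or 2, *caput* replicate 3, *corpus* replicate 2 or 3 or *cauda* replicate 1. Without *cauda* replicate 3 it was 0.0402. The squared strand difference over that expected from read counting alone, for which 1 means counting error only, was 8.03 ± 0.684 (SD, n = 3) in testis, 10.6 ± 3.19 in *caput*, 11.8 ± 6.48 in *corpus* and 11.8 ± 0.962 in *cauda*. Without the Gm26917 pairs it was 1.80 ± 1.08, 2.84 ± 1.22, 3.12 ± 0.687 and 1.99 ± 0.518. The value expected from counting falls as reads rise, so that where the strands differ the ratio also depends on depth. *Corpus* replicate 1 had the largest mean absolute strand difference, 20.7 percentage points, and the lowest ratio, 7.29, at 429606 reads. *Corpus* replicate 2 had a smaller difference, 14.97, and the highest ratio, 19.2, at 848746 reads. The part of depth in the group values was not tested. The difference of the ratio from testis was 3.74 in *cauda*, where each sample (10.8 to 12.7) lay above each testis sample (7.30 to 8.65). It ran from 3.26 to 4.23 with samples left out, and was 2.28 with 1 pair per window of 100 bp. Over pairs with at least 20 reads a strand in every sample compared it was 6.32, and without Gm26917 it was 0.192. In both of these settings *cauda* samples overlapped those of testis. In *corpus* the difference of the ratio was 3.80, 0.0922 without *corpus* replicate 2 and 6.07 without *corpus* replicate 1. In *caput* it was 2.55, 0.758 without *caput* replicate 2 and 11.3 over pairs with at least 20 reads. Over the pairs with a mean of 20% to 80% it was 5.12 in *caput*, 5.30 in *corpus* and 4.61 in *cauda*. The *caput* and *corpus* samples overlapped those of testis.

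Within the 6 loci with several pairs, the other strand of the same CpG was compared with the next CpG on the same strand. The other strand differed by 14.8 ± 4.17 percentage points (SD, n = 12 samples) and the neighbour by 6.36 ± 2.13, over 14 steps. Without Gm26917 the values were 6.29 ± 4.68 and 6.40 ± 2.33, and the other strand was the farther in 3 of 12 samples. In *corpus* replicate 1 it was at 20.2 against 11.8.

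The pair rows were at 51.1% ± 3.62 (SD, n = 12 samples) and the rows without a partner at 49.6% ± 1.60. The difference of 1.47 percentage points turned to −9.57 with 1 pair per window of 100 bp, which gives the 7 pairs of Sfi1 the weight of 1. It was 11.7 as a median over rows and 0.983 without *caput* replicate 1. Between 20% and 80% lay 27.6% ± 4.87 of the pair rows and 15.9% ± 5.28 of the others. Pair rows had a median of 38.9 reads, averaged over samples, and the others 37.6. No pair was held by 14 loci the study pyrosequenced or ranked, by H19, which it also pyrosequenced, or by the Hox genes, the germline genes or the DNA methylation machinery, with 26, 1, 78, 12 and 9 rows of the table there.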

How the data were processed

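RRBS was measured in 12 samples, 3 each from testis, *caput*, *corpus* and *cauda*. Per the submitters' processing notes, reads were trimmed with Trim Galore 0.4.1 and aligned to GRCm38 with Bismark 0.16.1, and methylKit was used for the comparisons. The deposited count table gives, per cytosine, strand and sample, the count of all, methylated and unmethylated reads, with at least 10 reads in every sample. At 10 reads, 1 read is worth 10 percentage points. The other deposited lists hold the authors' own comparisons and were not used.

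Percent methylation was computed per row and strand, and pairs were matched by position. Strand differences were fitted in limma 3.58.1 (R 4.3.3) with 4 group means. Segments were compared with testis by logistic regression on pooled reads, and all p-values were adjusted by Benjamini-Hochberg, which replaces the SLIM method of the study. Fisher's exact test was run per pair and sample. Genes came from GENCODE M21, sequences from the RefSeq copy of GRCm38. Python 3.11.15, numpy 2.4.6, pandas 2.3.3, scipy 1.17.1, pysam 0.24.0 and samtools 1.23.1 were used. The tests were checked on simulated data. At 0 methylated reads the limit is that of 3 reads. Intervals are 95% Wilson intervals. Both cover counting error only, since reads carry no molecular identifiers.

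Named pairs were those with the largest strand differences of constant sign in at least 11 samples, those called on both strands without overlap, and the 4 with a mean of 30% to 70% and the closest strands. The other pairs described were chosen after their values were seen. Members and lists were chosen with earlier results of these data known. Alternatives were depth, log2 ratios with a pseudocount of 1 read, a replicate block, other bars and tests, windows of 100 bp, medians and leaving out samples. The fits without the Gm26917 pairs, those without both *caput* replicate 1 and *corpus* replicate 1, and the strand by segment logistic regressions with 1 sample left out were added after seeing the data.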

Additional observations from a re-analysis of the deposited data

Results flagged for a closer look

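At 3193439 of Sfi1 the − strand was the higher in all 3 *corpus* samples and the + strand in all 3 *cauda* samples, and the strand difference in *corpus* minus that in *cauda* was −16.5 percentage points. In single samples the strand difference ran from −26.3 to −1.73 in *corpus* and from 2.88 to 3.56 in *cauda*, and the contrast was not tested. The + strand rested on 15 and 17 reads in *corpus* replicates 1 and 3. At 3193445 of Sfi1 the + strand was the higher in all 3 testis samples and the − strand in all 3 *caput* samples, and the strand difference in testis minus that in *caput* was 6.99 percentage points, which limma did not call (adjusted p = 0.685).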

How the results depend on the processing

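The strand difference calls numbered 3 under each alternative run that kept the Gm26917 pairs, except 4 by the Cochran-Mantel-Haenszel test, and 0 without those pairs, and Fisher calls went from 5 to 1. The mean of + minus − was −7.50, and −7.97 to −6.70 with samples left out. It moved to −0.679 as a median over pairs, to −3.43 with 1 pair per window and to 0.0615 without Gm26917, where leaving out 1 more sample gave −0.296 to 0.987, the highest without *corpus* replicate 1. The difference between pair rows and single rows turned to −9.57 with 1 pair per window, rose to 11.7 as a median, and ranged from 0.983 to 1.75 with samples left out. *Caput* calls on both strands went from 2 to 0 above 40 percentage points, to 1 at an adjusted p under 0.001, and ranged from 1 to 2 with samples left out. The 10 pairs with at least 20 reads gave 0, and neither called pair was among them. With an overdispersion term they were 0. That test recovered none of the changed sites of simulated data at this coverage, which had fewer changed rows and no spread between pools. Gm42642 dropped out without *caput* replicate 1, and Gm10800 without testis replicate 1 or 3 or *caput* replicate 2 or 3. Without *caput* replicate 3 a pair of Tmem267, at 119609727, was called instead. Strand by segment calls ranged from 0 to 2 in *caput*, 0 to 1 in *corpus* and 0 to 1 in *cauda* with samples left out, and were 1 in *caput* by logistic regression, 0 to 2 there with samples left out and up to 1 in *cauda*. Without both *caput* replicate 1 and *corpus* replicate 1 they were 2 in *corpus* and 1 in *cauda*. The cause was not tested. A minimum of 20 reads in all 12 samples left 0 pairs, so those fits could not be run, and neither could it in *corpus* against testis. No pair lay on X or Y. Same-numbered samples did not deviate together: 0 of 18 same-numbered correlations were over 0.1, and 2 of 12 samples correlated best with their own number. Whether they came from the same mice is not stated, and this check cannot show it. The replicate block gave 3 strand difference calls and 2 *caput* calls on both strands, as without it. Depth limits most pairs, and many share a fragment.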
